A study of Mus musculus with 12 samples.

Results

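The genes described here encode the enzymes that remove reactive oxygen species and that make, recycle or use glutathione. They were the genes whose symbol names a glutathione transferase (Gsta, Gstk, Gstm, Gsto, Gstp, Gstt or Gstz), a glutathione peroxidase, a peroxiredoxin, a superoxide dismutase, a thioredoxin, a thioredoxin reductase or sulfiredoxin, together with Cat, Gclc, Gclm, Gss, Gsr, Nfe2l2, Keap1, Nqo1, Hmox1 and Hmox2. The rule found 56 genes with 130 transcripts, of 24516 genes with a symbol in the table of assembled transcripts. Total RNA was sequenced from the testes of 12 C57BL/6 mice labelled WT, 3 at each of the ages 3 months (3M), 6 months (6M), 12 months (12M) and 18 months (18M), to ask how testicular transcripts change with age. No group carried a transgene, a deletion or a treatment. Whole testis was used, so germ cells, Sertoli cells and interstitial cells were measured together, and fewer cells of a type cannot be told apart from less RNA per cell.

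Superoxide dismutases turn superoxide into hydrogen peroxide, which catalase, the glutathione peroxidases and the peroxiredoxins then reduce. The peroxidases draw electrons from glutathione or thioredoxin, which glutathione reductase and the thioredoxin reductases restore at the expense of NADPH, and glutathione transferases couple glutathione to lipid peroxidation products and foreign compounds. The transcription factor NRF2, encoded by Nfe2l2 and held in check by KEAP1, drives many of these genes through the antioxidant response element, and in the testis several members have forms particular to late germ cells, of which the selenoprotein GPX4 is also a structural part of the sperm midpiece.

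Promoter windows of some of the abundant members are given first. They are the windows of RefSeq on build GRCm38.p6 that run from 250 bases before to 50 bases after a transcription start. They are shown for Gpx4, which had reads from a pair of first exons, and for Gstm5 and Gstm1, each at the start nearest to that of the assembled gene, which lie in the same cluster of mu-class genes on chromosome 3 and are the most abundant members of that class. Capitals mark a match to the antioxidant response element TGACNNNGC.

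Gpx4, start of the mitochondrial and cytosolic form (chr10:80053315-80053614, plus strand): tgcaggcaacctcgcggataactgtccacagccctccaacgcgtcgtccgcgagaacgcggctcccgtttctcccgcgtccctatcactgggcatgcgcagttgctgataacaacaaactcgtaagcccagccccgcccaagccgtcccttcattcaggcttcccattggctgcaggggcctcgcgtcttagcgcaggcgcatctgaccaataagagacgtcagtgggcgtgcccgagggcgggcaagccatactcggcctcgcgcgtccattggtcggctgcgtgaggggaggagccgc
Gpx4, start of the nuclear form (chr10:80053761-80054060, plus strand): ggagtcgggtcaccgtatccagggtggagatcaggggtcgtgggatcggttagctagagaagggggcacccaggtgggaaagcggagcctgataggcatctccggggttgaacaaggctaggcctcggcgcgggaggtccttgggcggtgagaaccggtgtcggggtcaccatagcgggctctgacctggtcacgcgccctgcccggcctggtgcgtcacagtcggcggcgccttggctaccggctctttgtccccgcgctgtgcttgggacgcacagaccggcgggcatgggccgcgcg
Gstm5 (chr3:107895604-107895903, plus strand): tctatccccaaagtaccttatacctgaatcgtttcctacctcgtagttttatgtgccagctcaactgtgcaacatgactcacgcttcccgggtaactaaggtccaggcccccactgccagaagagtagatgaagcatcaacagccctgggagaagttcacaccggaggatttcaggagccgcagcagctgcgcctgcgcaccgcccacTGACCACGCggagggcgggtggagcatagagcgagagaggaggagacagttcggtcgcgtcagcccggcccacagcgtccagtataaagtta
Gstm1 (chr3:108017924-108018223, minus strand): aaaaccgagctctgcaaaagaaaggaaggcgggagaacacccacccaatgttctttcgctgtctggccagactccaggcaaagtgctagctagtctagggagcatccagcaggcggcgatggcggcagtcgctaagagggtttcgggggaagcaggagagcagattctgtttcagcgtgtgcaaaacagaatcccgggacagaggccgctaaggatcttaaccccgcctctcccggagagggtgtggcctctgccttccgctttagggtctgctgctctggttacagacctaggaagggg

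The element, searched on both strands, was found in 9 of the 47 members that had a window (19.15%), beside 14% of the 27025 genes with a window. The 9 sites are shown with 10 bases on each side and the match in capitals, read on the strand of the match.

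Gsta3 (chr1:21240454-21240482): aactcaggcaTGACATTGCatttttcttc
Nfe2l2 (chr2:75704885-75704913): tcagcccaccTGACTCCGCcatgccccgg
Srxn1 (chr2:152105542-152105570): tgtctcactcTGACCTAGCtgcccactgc
Gstm5 (chr3:107895802-107895830): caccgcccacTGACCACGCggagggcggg
Gstm7 (chr3:107931725-107931753): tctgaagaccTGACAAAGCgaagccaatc
Gclm (chr3:122245413-122245441): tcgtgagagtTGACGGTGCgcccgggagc
Prdx1 (chr4:116685456-116685484): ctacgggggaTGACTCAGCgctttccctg
Txnrd1 (chr10:82859104-82859132): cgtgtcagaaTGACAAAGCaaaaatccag
Sod1 (chr16:90220696-90220724): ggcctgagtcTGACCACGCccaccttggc

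The 9 genes covered several roles: Nfe2l2 itself, Gclm (the modifier subunit of the first enzyme of glutathione synthesis), Srxn1 (which repairs overoxidised peroxiredoxins), Prdx1, Txnrd1, Sod1, Gsta3, Gstm5 and Gstm7. Gstm5 and Gstm1 differ in the letters searched, with a match in the first and none in the second. A match is a stretch of letters, and binding was not measured here.

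The 12 libraries held 50924104 to 71803379 estimated reads, and members took 0.585% to 0.635% of them. Levels are given as FPKM, a fragment count scaled to transcript length and library size, summed over a gene's transcripts, and values by mouse as CPM, reads scaled to the library size with TMM normalization. Library 6M replicate 3 stood apart: 22 of the 52 members tested had their highest CPM there, 42.3% beside 12.5% of all 25590 genes tested, and the summed FPKM of 7 Leydig cell markers was 1666 there and 686 to 1129 in the other libraries. Insl3, a hormone of Leydig cells, stood at 1516 FPKM there and at 627 to 946 elsewhere. Hsd3b1 and Hsd17b3 were also highest there, while Cyp17a1, Cyp11a1, Star and Lhcgr were highest in 3M replicate 2. The summed macrophage markers were highest there too, at 27.5 FPKM beside 17.5 to 21.9 elsewhere. So were those of peritubular myoid cells (33.0, elsewhere 23.4 to 30.9) and spermatogonia (56.8, elsewhere 45.8 to 51.8). The sums of Sertoli cells, endothelium, red blood cells, epididymis, spermatocytes and spermatids were not. By gene, the Sertoli cell markers Sox9, Wt1, Cldn11, Gata4 and Fshr were highest there, and Amh, Rhox5 and Amhr2 were not. Amhr2, the largest part of that sum in most libraries, stood at 61.9 FPKM in 6M replicate 2 and at 35.4 in 6M replicate 3. Testis was recognisable in every library: the spermatid markers Prm1, Prm2, Tnp1, Tnp2, Acrv1, Akap4 and Odf1 summed to 22359 to 33090 FPKM. Of 8 epididymis markers, 5 stayed under 0.1 FPKM in all libraries, and their sum was 2.40 to 3.16 FPKM.

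The antioxidant transcripts of the testis were dominated by few genes. The 5 highest members held 69.3% and the 10 highest 85.8% of the FPKM of all members, and Gstm5, a mu-class transferase known from testis and brain, reached 1587 ± 69.8 FPKM (SD, n = 12), 33.1% of the sum. Gpx4 followed with 864 ± 55.0 FPKM. In all, 10 members stood at 100 FPKM or more, 20 from 10 to 100, 20 from 1 to 10 and 6 under 1.

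**Figure D1:**
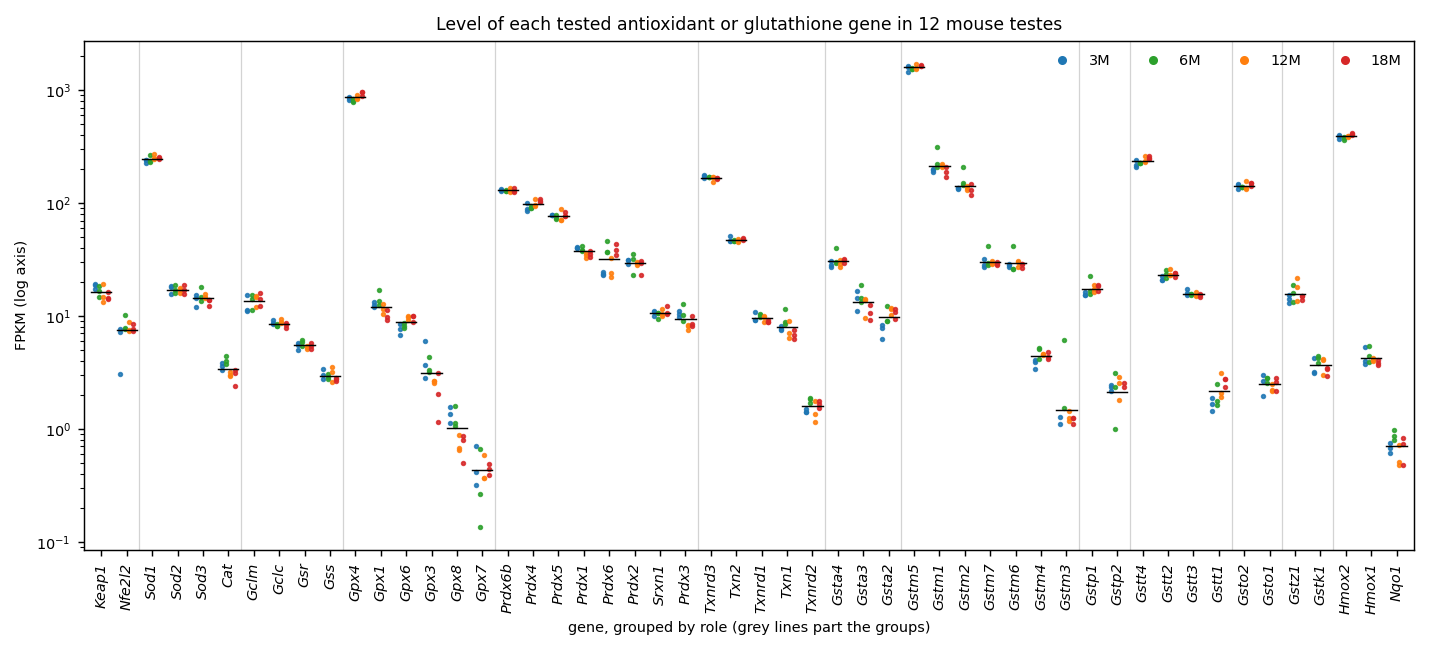
FPKM on a log axis of the 52 genes tested for change, grouped by role, with a point for each of 12 mice coloured by age and a black line at the mean of all mice. Gstm5 lies at the top at about 1587 FPKM and Gpx7 at the bottom at 0.429, and points at 0 (Gstm3 in 2 mice, Gstp2 in 1) are not drawn.

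Among the regulators, Keap1 stood at 16.4 ± 2.18 FPKM and Nfe2l2 at 7.57 ± 1.65 (SD, n = 12). Nfe2l2 was low in 1 library, with 7.88 CPM in 3M replicate 3 and 18.6 to 26.0 in the other 11.

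Of the enzymes that act on superoxide, the cytosolic Sod1 was the highest at 247 ± 13.9 FPKM, followed by the mitochondrial Sod2 at 17.1 ± 1.19 and the extracellular Sod3 at 14.4 ± 1.57. Catalase, the peroxisomal enzyme, was low at 3.40 ± 0.54 FPKM. Sod1 thus held 87.6% of the FPKM of these 4 genes.

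The enzymes of glutathione synthesis and recycling stood between 2.96 and 13.6 FPKM on average. The ligase subunits Gclm and Gclc stood at 13.6 ± 1.84 and 8.54 ± 0.43 FPKM, glutathione reductase Gsr at 5.49 ± 0.34 and glutathione synthetase Gss at 2.96 ± 0.29. All 4 together made up 0.637% of the members' FPKM.

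Gpx4 held 97.1% of the FPKM of the 9 peroxidase genes. Next came Gpx1, the widespread cytosolic enzyme, at 12.1 ± 2.02 FPKM, Gpx6 at 8.76 ± 1.04 and the secreted Gpx3 at 3.13 ± 1.21. Gpx8, an enzyme of the endoplasmic reticulum, stood at 1.02 ± 0.35 FPKM. Gpx5, the secreted peroxidase of the epididymis, had no reads in 9 libraries and a highest CPM of 0.0953, and Gpx2 and Gpx2-ps1 had 0 reads in 12 and 3 libraries. These 3 genes and Gsta1, with reads in 1 library alone, were too low to test.

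Peroxiredoxins were led by Prdx6b, an intronless copy of Prdx6, at 129.8 ± 3.50 FPKM, and by Prdx4, the peroxiredoxin of the secretory pathway, at 97.1 ± 7.83. Prdx6b had the steadiest level of all tested members, with a coefficient of variation of 2.60% over 12 mice. Prdx5 stood at 77.2 ± 5.19 FPKM, Prdx1 at 37.2 ± 2.84, Prdx6 at 32.2 ± 8.59 and Srxn1 at 10.7 ± 0.74.

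Txnrd3, the thioredoxin and glutathione reductase of spermatids, stood at 168 ± 5.64 FPKM, above the mitochondrial thioredoxin Txn2 at 47.1 ± 1.54, the cytosolic Txnrd1 at 9.55 ± 0.65 and its partner Txn1 at 7.93 ± 1.43. Txnrd3 therefore held 71.7% of the FPKM of the thioredoxin group.

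Each class of glutathione transferase had its own leading gene. Gstm5 led the mu class, Gstt4 the theta class with 235 ± 16.7 FPKM, Gsto2 the omega class with 142 ± 7.12, Gsta4, which clears lipid aldehydes, the alpha class with 30.4 ± 3.35, Gstp1 the pi class with 17.3 ± 2.05 and Gstz1, an enzyme of tyrosine breakdown, the kappa and zeta genes with 15.7 ± 2.60. Gstm1 and Gstm2 added 212 ± 34.9 and 143 ± 22.1 FPKM. Gsta1 and Gsta2, Gstp1 and Gstp2, the mu-class genes, and Prdx6 and Prdx6b have close copies, so the split of reads between them is uncertain.

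Of the heme oxygenases, which break heme down to biliverdin, the constitutive Hmox2 stood at 390.2 ± 16.4 FPKM and the inducible Hmox1 at 4.22 ± 0.56. Nqo1, a quinone reductase and a classic NRF2 target, was at 0.701 ± 0.16 FPKM.

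Change with age was first tested as a slope over all 12 mice, with edgeR's quasi-likelihood test and Benjamini-Hochberg adjustment over 25590 genes and loci. No member reached an adjusted p of 0.05, while 43 of all genes did (0.168%). At an unadjusted p of 0.05 or less, 15 of the 52 tested members had a slope (28.85%, beside 15.2% of all genes), 6 with a rising slope (6.83% of all genes) and 9 with a falling slope (8.37%). The median fitted change of the members over 15 months was -0.024 on the log2 scale, beside 0.00071 for all genes, and 39 of the 52 members had a fitted change under 0.25 log2 in size. With DESeq2, 5 members were called (2.17% of all genes): Gpx8, Gpx3 and Cat falling, and Gstt1 and Gstt4 rising.

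The largest fitted falls were those of Gpx8 and Gpx3. In Gpx8 the CPM was 1.49, 1.69 and 1.25 in the 3M mice, 1.18, 1.25 and 1.70 at 6M, 0.73, 0.75 and 0.96 at 12M, and 0.55, 0.94 and 0.88 at 18M. All 6 mice of 12M and 18M were below all 6 mice of 3M and 6M. Its slope amounted to -1.01 ± 0.23 log2 over 15 months (SE, edgeR adjusted p = 0.108).

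In Gpx3 the CPM was 6.04, 9.77 and 4.68 at 3M, 5.40, 5.25 and 6.94 at 6M, 4.34, 4.44 and 4.06 at 12M, and 5.05, 3.34 and 1.86 at 18M. The spread was wide at 3M and at 18M, and these ages overlapped. Its slope was -1.01 ± 0.29 log2 over 15 months (edgeR adjusted p = 0.17).

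Catalase stood at 9.51, 10.2 and 9.08 CPM at 3M, 10.2, 11.9 and 10.7 at 6M, 8.03, 8.90 and 8.07 at 12M, and 8.72, 8.09 and 6.28 at 18M. The 12M and 18M mice lay below the 3M and 6M mice without overlap, and the slope was -0.43 ± 0.13 log2 over 15 months (edgeR adjusted p = 0.182).

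For Gpx1 the values were 14.8, 13.5 and 14.0 CPM at 3M, 14.1, 15.1 and 18.6 at 6M, 13.0, 14.4 and 11.4 at 12M, and 12.6, 10.9 and 10.3 at 18M. The highest value was that of 6M replicate 3, and the 18M mice lay below the 3M mice. The slope was -0.41 ± 0.13 log2 over 15 months, and -0.35 ± 0.10 without 6M replicate 3. Gsta3, an alpha-class transferase, had a slope of -0.44 ± 0.18 with its CPM between 14.0 and 27.8. The other members with a falling slope at an unadjusted p of 0.05 or less were the mitochondrial Prdx3 (-0.32 ± 0.13), Keap1 (-0.23 ± 0.10), Prdx1 (-0.21 ± 0.06) and Txnrd1 (-0.15 ± 0.06), all as log2 over 15 months.

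**Figure D2:**
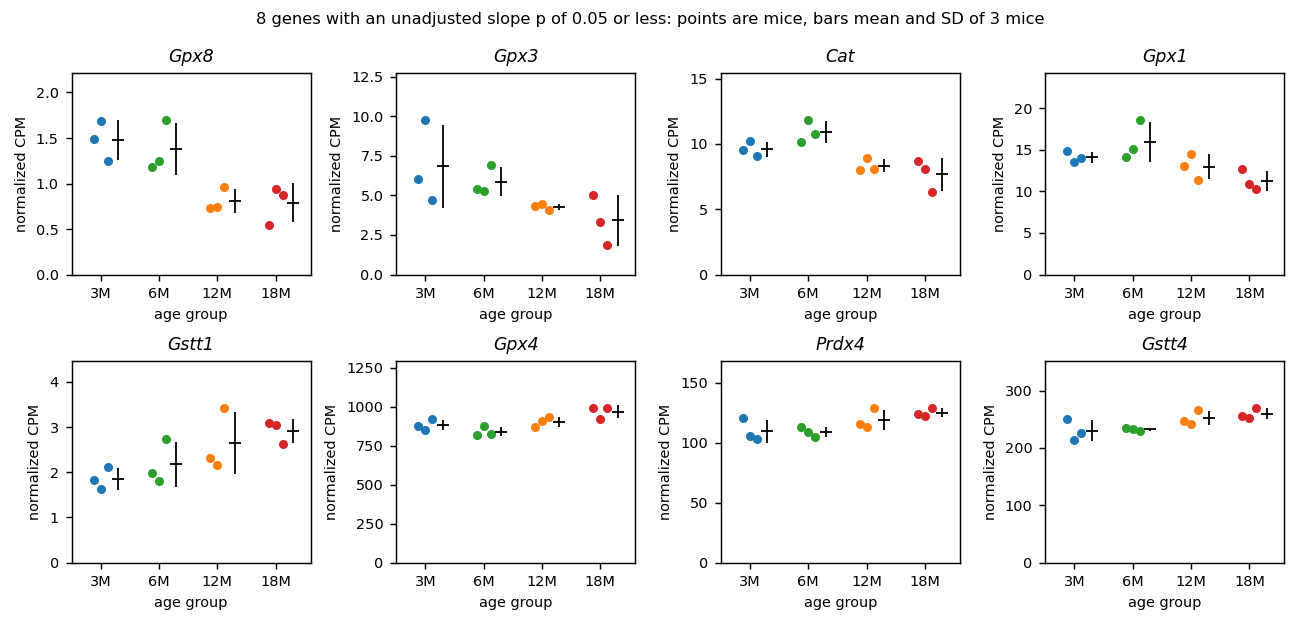
Normalized CPM by age group in 8 members, with a point for each mouse and the mean and SD of 3 mice beside the points; each axis starts at 0. Gpx8 and Cat lay lower in all 12M and 18M mice than in all 3M and 6M mice, and Gstt1, Gpx4, Prdx4 and Gstt4 lay higher in each 18M mouse than in each 3M mouse.

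The members with a rising slope were led by Gstt1, a theta-class transferase. Its CPM was 1.83, 1.62 and 2.10 at 3M, 1.97, 1.80 and 2.74 at 6M, 2.32, 2.17 and 3.43 at 12M, and 3.09, 3.04 and 2.61 at 18M. The 18M mice were all above the 3M mice, and the slope was 0.64 ± 0.18 log2 over 15 months (edgeR adjusted p = 0.17).

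More abundant members had smaller slopes. Gpx4 stood at 878, 852 and 919 CPM at 3M, 819, 875 and 826 at 6M, 869, 909 and 932 at 12M, and 994, 920.4 and 995 at 18M. Every 18M mouse exceeded every 3M mouse, by little: the slope was 0.16 ± 0.05 log2 over 15 months (edgeR adjusted p = 0.182).

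In Prdx4 the CPM was 121, 105 and 103 at 3M, 113, 109 and 105 at 6M, 116, 113 and 129 at 12M, and 124, 122 and 129 at 18M. Again the 18M mice lay above the 3M mice, with a slope of 0.21 ± 0.06 (edgeR adjusted p = 0.172). Gstt4 went from 214 to 250.2 CPM at 3M to 252 to 270.4 at 18M, with a slope of 0.19 ± 0.05 (edgeR adjusted p = 0.153). Gsta2 and the olfactory and embryonic peroxidase Gpx6 had slopes of 0.41 ± 0.17 and 0.25 ± 0.08 log2 over 15 months. Gstm5, the most abundant member, had a slope of 0.08 ± 0.04 (edgeR adjusted p = 0.387), with 1415 to 1638 CPM over all mice.

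**Figure D3:**
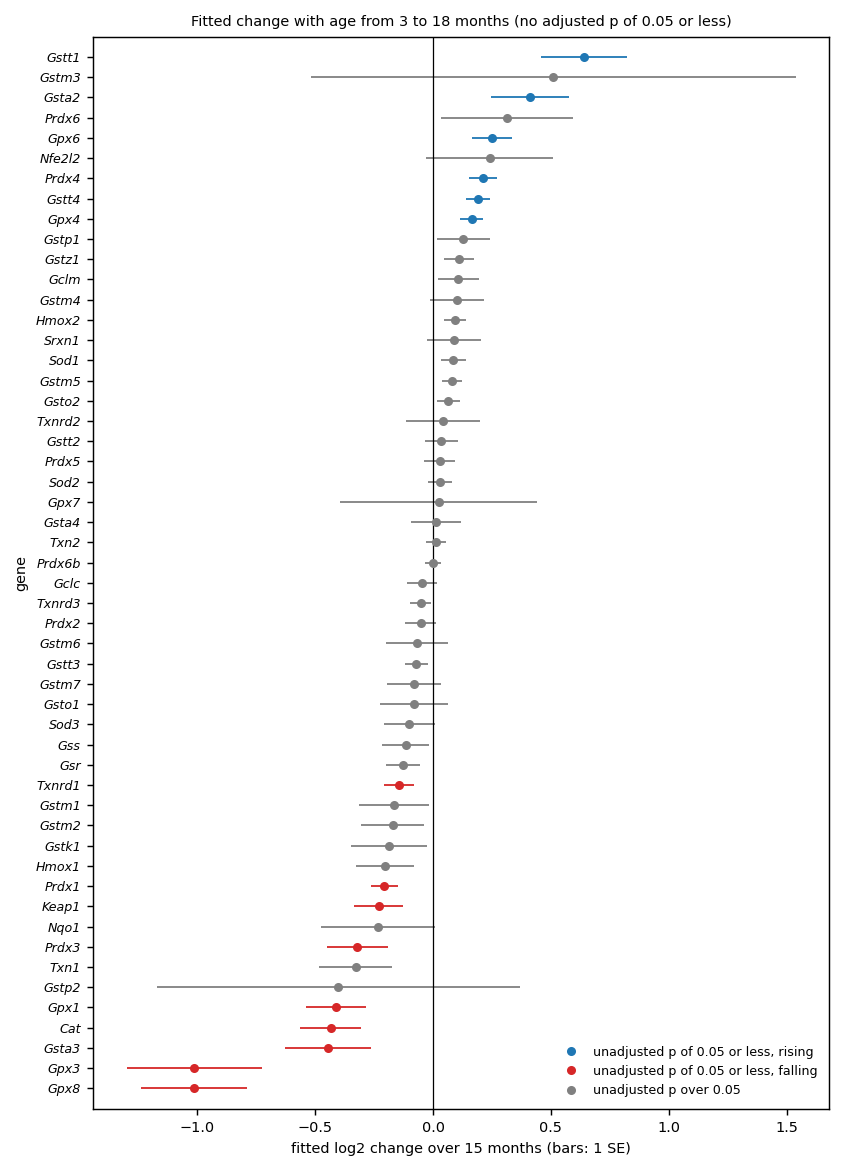
Fitted log2 change from 3 to 18 months of the 52 tested members, with bars of 1 SE, ordered by size. Colour marks an unadjusted p of 0.05 or less, 6 rising in blue and 9 falling in red, and no adjusted p was 0.05 or less.

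In 3 members reads were missing or low in single libraries. Gstm3 was listed at 0 in 3M replicate 3 and 6M replicate 1 and at 1.41 to 2.37 CPM in the others, and Gstp2 was listed at 0 in 18M replicate 2 and at 0.81 to 2.47 in the others. Nfe2l2, described above, had its low value in 3M replicate 3. Their slopes of 0.51 ± 1.03, -0.40 ± 0.77 and 0.24 ± 0.27 log2 over 15 months are not distinguishable from 0.

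The summed level of 7 markers of Leydig cells, the steroid-making cells of the interstitium, was also lower in every 12M and 18M mouse than in every 3M mouse. All 7 were tested for a slope: Cyp17a1, which makes androgens, fell by 1.48 ± 0.12 log2 over 15 months (edgeR adjusted p = 1.35e-04) and Cyp11a1, the first enzyme of steroid synthesis, by 1.63 ± 0.20 (edgeR adjusted p = 0.00585), and 6 of the 7 had a falling slope at an unadjusted p of 0.05 or less. Their summed FPKM was 978 to 1129 in the 3M mice, 910 to 1666 in the 6M mice, 750 to 791 at 12M and 686 to 949 at 18M, and no marker stayed under 0.1 FPKM. Most of the sum was Insl3, with a mean of 841 FPKM over 12 libraries. By itself Insl3 was lower in every 12M mouse than in every 3M mouse, but 3M and 18M overlapped. It stood at 840 FPKM in 3M replicate 1 and at 860 in 18M replicate 1. Hsd3b1, an enzyme of steroid synthesis, differed from the sum, with 18.0 ± 1.93 FPKM at 3M and 21.2 ± 6.61 at 18M (SD, n = 3). Spermatid markers summed to 23958 to 26425 FPKM in the 3M mice, 22359 to 24558 in the 6M mice, 24447 to 33090 at 12M and 24575 to 29265 at 18M, with 0 of 7 called and 2 rising at an unadjusted p of 0.05 or less. Of the markers of Sertoli cells, peritubular myoid cells, macrophages, endothelium, red blood cells, epididymis, spermatogonia and spermatocytes, 0 were called for the slope. A falling slope at an unadjusted p of 0.05 or less was found in 2 of 5 endothelium markers, 1 of 8 Sertoli cell markers, 1 of 6 macrophage markers and 1 of 6 spermatogonia markers, and in none of the others tested, and a rising one in none. At an unadjusted p of 0.05 or less, 8.37% of all genes had a falling and 6.83% a rising slope, and 0.168% were called. Red blood cell markers summed to 19.4 to 63.9 FPKM, with the highest sum in 18M replicate 3. The part of cell composition in the members' slopes was not tested.

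Between 3M and 18M alone, edgeR called 16 of 24965 genes (0.0641%) and none of the 52 members. At an unadjusted p of 0.05 or less, 8 members were higher at 18M (5.62% of all genes) and 5 lower (6.34%). The 3 mice of either age did not overlap in 18 members, 11 of them higher at 18M (9.01% of all genes) and 7 lower (10.4%). Those higher were Gpx4, Gpx6, Gsta2, Gstp1, Gstt1, Gstt4, Gstz1, Prdx4, Prdx6, Sod1 and Txnrd2, and those lower Cat, Gpx1, Gpx8, Keap1, Prdx1, Txn1 and Txnrd1. Among the larger differences were 0.66 ± 0.14 log2 in Gstt1, 0.74 ± 0.12 in Prdx6 and, in the other direction, -0.90 ± 0.25 in Gpx8 and -0.997 ± 0.41 in Gpx3, none with an adjusted p of 0.05 or less. DESeq2 called 1 member, Prdx6 (1.15% of all genes), and edgeR called the same gene without 18M replicate 1. With the reads of the last Prdx6 exon left out, an alternative chosen after seeing the data, Prdx6 differed by -0.00117 ± 0.05 log2 (edgeR adjusted p = 0.994).

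The comparisons of neighbouring ages share libraries with each other and with the slope. Between 3M and 6M, 17 of 24927 genes were called (0.0682%), and 1 of the 52 members, Prdx6, was among them. It was 0.83 ± 0.06 log2 higher at 6M (edgeR adjusted p = 0.00691). The call was lost with all 12 libraries in 1 fit (0.84 ± 0.14 log2, edgeR adjusted p = 0.234), with transcripts of class =, which match a reference transcript, alone (1.12 ± 0.11, 0.0800) and with a block by mouse number (0.83 ± 0.05, 0.105). At an unadjusted p of 0.05 or less were 5 members, all higher at 6M (2.19% of all genes), namely Prdx6, Gsta2, Gstm1, Gpx6 and Txnrd2. The members' median difference was 0.07 log2, beside 0.0025 for all genes, and 0.01 without 6M replicate 3. Gstm1 was 0.34 ± 0.14 log2 higher at 6M with that library and 0.15 ± 0.05 without it. Without it Gsta2 went from 0.41 ± 0.16 to 0.26 ± 0.15 and Gpx6 from 0.24 ± 0.08 to 0.22 ± 0.09 log2, and neither stayed at an unadjusted p of 0.05 or less. Still 5 members reached that p without it, all higher at 6M, beside 3.52% of all genes in either direction. Prdx6, Gstm1 and Txnrd2 stayed among them, and Gstm2 (0.12 ± 0.04 log2) was added.

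Prdx6 is a peroxiredoxin that uses glutathione and also has phospholipase activity. Its CPM was 49.6, 51.4 and 52.0 at 3M, 88.0, 88.1 and 96.8 at 6M, 48.1, 65.3 and 49.4 at 12M, and 68.3, 91.9 and 94.7 at 18M. No 3M mouse reached the level of a 6M mouse, and the level at 12M returned close to that of 3M in 2 of 3 mice.

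The reads of the last exon alone carried this difference. The exon lies on the minus strand at chr1:161240112-161241849 on mm10 and is 1738 bases long, of which GENCODE M21 annotates 126 as coding and 1612 as 3′ UTR. It held 3.76, 3.25 and 4.08 CPM, here without TMM, at 3M, 43.6, 43.99 and 46.6 at 6M, 3.51, 19.1 and 4.70 at 12M, and 19.8, 46.0 and 48.3 at 18M. All other exons together held 45.7, 48.1 and 47.5 at 3M, 43.9, 43.3 and 52.3 at 6M, 44.2, 45.1 and 45.6 at 12M, and 48.6, 46.3 and 46.5 at 18M. The exon thus had few reads in 5 of the 12 libraries, an intermediate number in 2 and many in 5, while the rest of the gene ranged only from 43.3 to 52.3. Whether reads were missing there or were not assigned by the authors' quantification cannot be seen in these files. With the last exon left out, Prdx6 differed by -0.03 ± 0.07 log2 between 3M and 6M (edgeR adjusted p = 0.991), and no member was called. Prdx6b, the intronless copy, stayed at 388 to 420.4 CPM in all libraries.

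**Figure D4:**
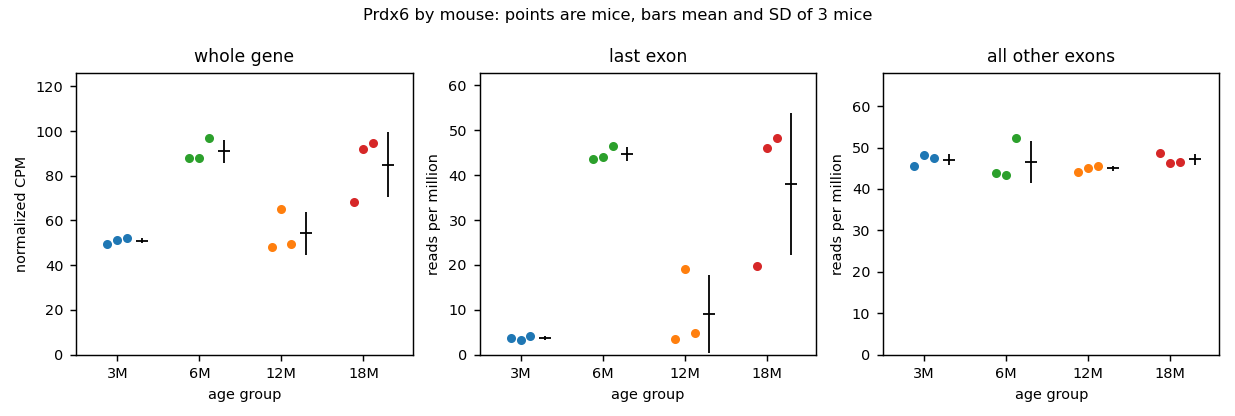
Prdx6 by age group, as normalized CPM of the whole gene and as CPM of the last exon and of all other exons, with a point for each mouse and the mean and SD of 3 mice; each axis starts at 0. The last exon went from at most 4.08 at 3M to at least 43.6 at 6M, and the other exons stayed between 43.3 and 52.3.

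Such stretches were looked for in all members. Of 223 exon stretches of 100 bases or more with a coverage, scaled by library size as CPM is, of 0.5 or more in some library, 7 differed 10-fold or more between libraries. They lay in 4 of 46 genes: Prdx6, Gclm, Gstm3 and Gstp2. In Gclm a stretch of 577 bases had such a coverage of 0.55 to 0.74 in 7 libraries and of 0.01 to 0.05 in the other 5, spread over all ages.

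Between 6M and 12M, 10 of 24947 genes were called (0.0401%) and none of the members. At an unadjusted p of 0.05 or less were 7 members, all lower at 12M (3.91% of all genes), namely Prdx6 (-0.75 ± 0.13 log2), Gpx8 (-0.76 ± 0.22), Nqo1 (-0.64 ± 0.20), Gpx3 (-0.46 ± 0.14), Prdx3 (-0.40 ± 0.13), Cat (-0.39 ± 0.10) and Prdx1 (-0.16 ± 0.07). The members' median difference was -0.06 log2, beside -0.0040 for all genes, and 0.01 without 6M replicate 3. Without that library Gpx8 differed by -0.58 ± 0.22 and Cat by -0.40 ± 0.11 log2. In that fit 7 members reached an unadjusted p of 0.05 or less, beside 5.88% of all genes in either direction. Of these, 6 were lower at 12M and 1, Gsta2, was higher (0.29 ± 0.11 log2). DESeq2 called Prdx6 (0.549% of all genes), as edgeR did without 12M replicate 2. Without its last exon Prdx6 differed by -0.04 ± 0.08 log2.

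Between 12M and 18M, 4 of 25010 genes were called (0.016%) and none of the members. The only member at an unadjusted p of 0.05 or less was Prdx6, 0.65 ± 0.17 log2 higher at 18M (1.79% of all genes), which DESeq2 called (0.224% of all genes). Without its last exon the difference was 0.07 ± 0.05 log2.

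At the level of transcripts, 117 of the 130 were tested for a slope and none was called, beside 6 of 58289 transcripts (0.0103%). At an unadjusted p of 0.05 or less were 16 member transcripts (7.15% of all transcripts), and DESeq2 called 3 (1.28%), NM_010356 of Gsta3, NM_016764 of Prdx4 and NM_027127 of Gpx8. Gpx4 had reads from a pair of first exons in every library. The upstream exon at chr10:80053488-80053715, used by NM_008162, opens the mitochondrial and cytosolic form, and the downstream exon at chr10:80054019-80054300, used by NM_001037741, opens the nuclear form of sperm. NM_008162 held 69.7 ± 1.57% of the gene's reads in the 3M mice, 69.5 ± 0.53% in the 6M mice, 68.3 ± 2.05% at 12M and 68.6 ± 0.59% at 18M (SD, n = 3). NM_001037741 held 30.0 ± 1.58%, 30.2 ± 0.57%, 31.5 ± 2.06% and 31.2 ± 0.60% at the same ages, and NR_110342, from a distant first exon, held 0.27% of all reads of the gene. All ages overlapped in both shares. Their slopes were 0.14 ± 0.05 and 0.23 ± 0.07 log2 over 15 months, with edgeR adjusted p of 0.619 and 0.563.

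In Prdx4, named after its values were seen, most reads fell on an assembled transcript, MSTRG.22397.1, whose first exon at chrX:155340309-155340839 lies upstream of the RefSeq first exon at chrX:155338113-155338460. A testis form of Prdx4 with an upstream first exon is known. The assembled transcript held 73.4 ± 2.01% of the reads in the 3M mice, 71.6 ± 1.02% in the 6M mice, 72.9 ± 1.44% at 12M and 72.4 ± 1.61% at 18M, and NM_016764 held 24.3% to 29.3% in all mice. Neither Prdx4 share separated the ages. In Cat, chosen after its values were seen, the estimated shares at 18M did not overlap with those at the younger ages. How many of all transcripts separate an age in this way was not counted, and a difference in shares was not tested. The assembled transcript MSTRG.11673.2 held 68.1% to 76.4% of the reads at 18M and 0% to 46.7% at the younger ages. NM_009804 held 23.6% to 31.9% at 18M and 53.3% to 100% at the younger ages. Both Cat transcripts have 13 exons, with lengths of 2551 bases for NM_009804 and 2411 for MSTRG.11673.2. The assembler gave MSTRG.11673.2 0 reads in 6M replicate 3 and in 12M replicates 1 and 2, so its split of the reads is uncertain. Txnrd3 came almost wholly from NM_001178058, with at least 99.26% of its reads in every mouse. In Nfe2l2, NM_010902 held 74.6% to 78.2% of the reads at 3M and 84.5% to 98.5% at the later ages. Its slope was 0.37 ± 0.33 log2 over 15 months (edgeR adjusted p = 0.923). That of MSTRG.11512.1 was -0.44 ± 0.81 (edgeR adjusted p = 0.995). The whole gene was low in 3M replicate 3.

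**Figure D5:**
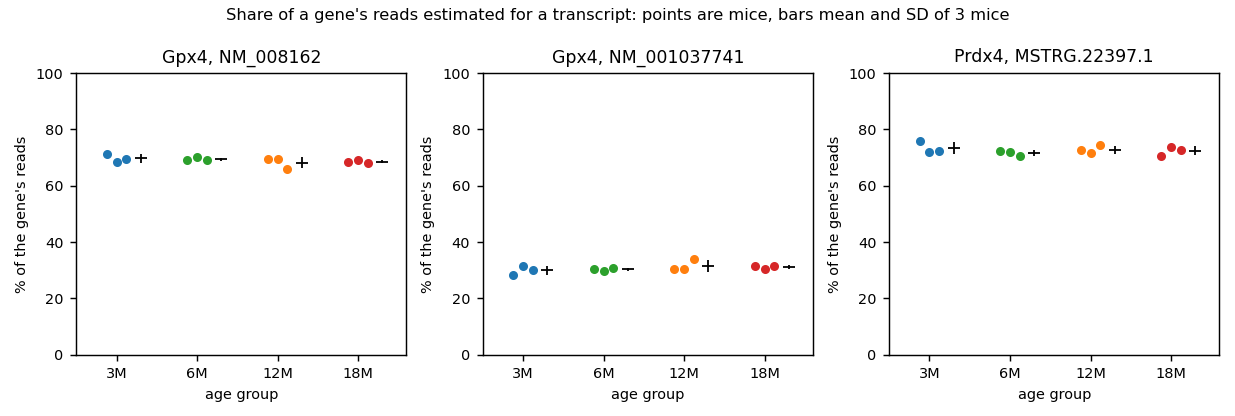
Percent of a gene's reads estimated for a transcript, by age group, on an axis from 0 to 100, with a point for each mouse and the mean and SD of 3 mice. Gpx4 NM_008162 stayed between 65.9% and 71.4%, Gpx4 NM_001037741 between 28.3% and 33.9% and Prdx4 MSTRG.22397.1 between 70.5% and 75.8% in all 12 mice.

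Neighbouring genes of the pathway were taken as 63 genes in 4 lists, of which 62 were tested. Of these, 2 were called for the slope (0.168% of all genes), both falling. At an unadjusted p of 0.05 or less, 14 had a falling slope (8.37% of all genes) and 1 a rising slope (6.83%). Ephx1, the microsomal epoxide hydrolase and an NRF2 target, went from 32.6 ± 1.63 FPKM at 3M and 30.7 ± 2.04 at 6M to 17.9 ± 1.83 at 12M and 15.2 ± 4.64 at 18M, a slope of -1.21 ± 0.17 log2 over 15 months (edgeR adjusted p = 0.0172). The ages 3M and 6M did not overlap with 12M and 18M. Ggt5, which cleaves glutathione conjugates and leukotriene C at the cell surface, was low and went from 0.37 ± 0.03 FPKM at 3M to 0.14 ± 0.01 at 18M (slope -1.31 ± 0.13, edgeR adjusted p = 0.0012).

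By list, the microsomal transferases and the genes of glutathione breakdown and cystine supply had 1 of 17 called and 2 with a falling slope at an unadjusted p of 0.05 or less. The NRF2 partners and further targets had 1 of 22 called and 5 with a falling slope at that p. Among the genes of NADPH supply, 0 of 9 were called and 4 had a falling slope at that p, and among glutaredoxins, testis thioredoxins and sulfoxide reductases 0 of 14 were called, with 1 rising and 3 falling slopes at that p. Of all genes, 0.168% were called for the slope, and 8.37% had a falling and 6.83% a rising slope at that p. None of the 62 was called between any pair of neighbouring ages or between 3M and 18M. The testis thioredoxin Txndc2 was the most abundant of all, at 335 FPKM.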

How the data were processed

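RNA from the testes of 12 C57BL/6 mice, 3 at each of 4 ages, was depleted of ribosomal RNA and sequenced in pairs of 101 bases with a library kit that keeps no strand, so overlapping antisense reads cannot be told apart. HISAT2 was used by the authors to align reads to mm10, and StringTie 1.3.3b to build a merged transcript set and estimate its levels. The authors deposited 1 table of 71967 transcripts with an estimated count (from coverage, transcript length and read length, rounded up) and an FPKM per library, without normalization between libraries, and 1 assembly per library, whose exon coverage was read here. Exon reads are that coverage times exon length over read length, so they cover counting as the authors' tool assigned it.

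Estimated counts of transcripts of class =, c, j or o were summed by gene symbol and left as the whole numbers deposited; other loci were kept apart, which gave 31954 genes and loci. The test was edgeR 4.0.16 in R 4.3.3 (quasi-likelihood, TMM, filterByExpr, Benjamini-Hochberg adjustment over all genes tested), with all 12 libraries for the slope on age in months and the 6 libraries of both ages in each pair; it was tested on simulated data. A call needed an adjusted p of 0.05 or less. TMM factors were 0.984 to 1.02, and mice of an age correlated at r of 0.988 to 0.991 over genes. The p-values measure the spread between mice, whose litters are not given in the sources used here. Alternatives were limma 3.58.1 on log2(FPKM + 1), DESeq2 1.42.0, other filters, scalings and class codes, a block, and leaving out each library.

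Genes named by rule are those called in any test, the 6 largest rising and falling slopes at a mean of 1 CPM or more, the highest of each role, the 10 highest in all and 19 fixed names; other members with values in the text, such as Prdx1, Prdx3, Prdx5, Txn1, Txn2, Txnrd1, Txnrd2, Gstm6 and Gstm7, were chosen after their values were seen. Members, lists, roles and tests were chosen with earlier results of these data known. Promoters are RefSeq windows on GRCm38.p6, the same build; 9 members had none. Protein sequences were not used here.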

Additional observations from a re-analysis of the deposited data

Results flagged for a closer look

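A pair of signals lay outside the transcripts that were summed for members. At Gclc, 2 assembled transcripts on the opposite strand, together at chr9:77767871-77784777, held 2.52 CPM on average over 12 libraries (102 to 208 reads per library), beside 31.4 CPM for the gene. By age they stood at 2.98 ± 0.49, 2.24 ± 0.25, 2.55 ± 0.22 and 2.32 ± 0.52 CPM from 3M to 18M (SD, n = 3). Within introns of Hmox2, 5 assembled transcripts on the opposite strand, at chr16:4734987-4741581, held 2.69 CPM on average (79 to 240 reads per library), beside 523 CPM for the gene. Both signals were above the 3 reads that a count of 0 allows in every library, and neither was used in the comparisons; the library kit keeps no strand.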

How the results depend on the processing

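Counts of called members rose without the adjustment of p and, apart from 3M against 6M, with DESeq2. For the slope, 0 members were called, 5 with DESeq2 and 15 at an unadjusted p of 0.05 or less, and 0 when any library was left out (0 to 0). Between 3M and 18M, 0 were called, 1 with DESeq2, 13 unadjusted, and 0 to 1 on leaving out a library, the 1 being Prdx6 without 18M replicate 1 (0.88 ± 0.05 log2). Between 3M and 6M, 1 was called, and 0 with all 12 libraries in 1 fit, with transcripts of class = alone, with the reads of the last Prdx6 exon left out, or with a log2 fold change of 1 or more required, against 5 unadjusted and 1 to 1 on leaving out a library. Between 6M and 12M, 0 were called, 1 with DESeq2, 7 unadjusted and 0 to 1 on leaving out a library, the 1 being Prdx6 without 12M replicate 2 (-0.90 ± 0.07 log2). Between 12M and 18M, 0 were called, 1 with DESeq2, 1 unadjusted and 0 to 0 on leaving out a library. For the slope of transcripts, 0 were called, 3 with DESeq2, 16 unadjusted and 0 to 0 on leaving out a library. The cause of these differences was not tested, apart from the exon left out.

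No pairing of the samples by mouse number was seen: of 18 same-number pairs 1 correlated above 0.1 (r from -0.187 to 0.119), and 3 of 12 libraries matched their own number best. The check used deviations from the means of 3 mice an age, so it cannot exclude a pairing. With a replicate block by mouse number, 0 members were called between 3M and 6M, and Prdx6 differed by 0.83 ± 0.05 log2 (edgeR adjusted p = 0.105).

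Of 793 values of the slopes of 36 named members under alternatives, 762 kept direction and side of the threshold, 5 passed it (with DESeq2) and 26 changed sign, in 9 genes; the 4 of these whose sign changed only without a library are Gclc (-0.0046 to 4.89e-05 log2 per month), Gsta4 (-0.0020 to 0.0052), Gstp2 (-0.044 to 0.0084) and Nfe2l2 (-0.00089 to 0.022). The last values of Gstp2 and Nfe2l2 with a changed sign were those without 18M replicate 2 and without 3M replicate 3. Prdx6b, with a slope near 0, changed sign under library size only (0.000276), DESeq2's size factors (4.85e-05), no filter (0.000361), 1 CPM in 3 libraries (1.95e-05), DESeq2 (6.06e-05), all class codes (0.000346), class = alone (0.000290) and on leaving out a library (-0.0018 to 0.0015). With class = alone the slopes of Gss (0.0047), Gstz1 (-0.013) and Sod2 (-0.038) changed sign, as did Sod2 with log2(FPKM + 1) and limma (-0.0021). With the last Prdx6 exon left out, its slope was -0.000773, and its difference was -0.00117 log2 between 3M and 18M and -0.028 between 3M and 6M. Depth limits members under about 1 CPM, such as Gpx7, where 9 reads were the fewest in a library.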

Other observations

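Of the glutathione transferases, Gsta2, Gsta3, Gsta4, Gstm1, Gstm2, Gstm3, Gstm4, Gstm6, Gstm7, Gstp1 and Gstp2 had their highest CPM in 6M replicate 3. Among the other tested members, Gpx1, Gpx8, Gsr, Hmox1, Nfe2l2, Nqo1, Prdx2, Prdx3, Prdx6, Sod3 and Txn1 had theirs there. Gstm7 stood at 56.7 CPM there and at 37.6 to 44.5 in the other libraries, and Gstm6 at 49.3 there and at 31.3 to 35.9 elsewhere. The abundant Hmox2, Prdx6b and Sod2 had their lowest CPM in the same library, with 478, 388 and 69.6 CPM.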
